A study of Mus musculus with 18 samples.

Results

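The Pax genes encode transcription factors that share a paired DNA-binding domain and pattern the embryo. The 8 genes described here, Pax1, Pax2, Pax3, Pax5, Pax6, Pax7, Pax8 and Pax9, were chosen by name from 23421 genes and cover 13 of the 29851 deposited RefSeq transcripts. Pax4, the remaining gene of the family, was listed at 0 in all 6 RNA-seq libraries and is not counted among them. No member was chosen by its level in these libraries.

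The family falls into subgroups that arose by gene duplication and still share much of their structure and expression. Pax3 and Pax7 act in the dorsal neural tube, the neural crest and muscle precursors. Pax6 acts in the eye, the forebrain and spinal cord progenitors, and the pancreas. Pax2, Pax5 and Pax8 act together at the border of midbrain and hindbrain. Elsewhere Pax2 and Pax8 act in kidney, Pax5 in B lymphocytes and Pax8 in thyroid. Pax1 and Pax9 act in the sclerotome, which forms the vertebrae, and in the pharyngeal pouches, which form thymus and parathyroid. Many promoters of such developmental regulators carry Polycomb marks in embryonic stem (ES) cells, where the genes are silent or weakly transcribed.

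At issue in the study was the effect on transcription of Polycomb repressive complex 2, which methylates lysine 27 of histone H3 and needs the subunit Eed. Of its 18 mouse samples, 6 are RNA-seq libraries of 129/Ola background, 1 per group, and these were used. The group EB Eed KO held embryoid bodies (EBs) of E36 cells labelled as Eed knock-out, and EB wild type held EBs of wild-type E36 cells. Both were formed without leukemia inhibitory factor in hanging drops for 48 hours, received 0.5 µM all-trans retinoic acid from day 2 to day 5 and were kept to day 9. ES Eed KO and ES wild type were undifferentiated ES cells labelled as Eed knock-out and wild-type E36, kept in leukemia inhibitory factor and 15% serum. The groups shSetd2 and shCtrl were ES cells of another line, E14, grown in the same medium, selected with puromycin after lentiviral delivery of a hairpin against Setd2 or of a scrambled hairpin, and harvested on day 4 after selection. Setd2 trimethylates lysine 36 of histone H3. The labels name neither the Eed allele nor how many clones were used, and EBs are mixtures of cell types. The other 12 samples are ChIP-seq of histone modifications and were not analysed here.

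Transcript levels are in FPKM as deposited: the fragments that fell on a transcript, divided by its length and by the mapped total of the library. FPKM values are levels per length, so genes can be compared within a library. With 1 library per group there is no replicate error, no test and no p-value. A difference is that of log2(FPKM + 1) between the 2 libraries named. A gene met the size rule, and is called higher or lower below, where FPKM was at least 1 in at least 1 of the 2 libraries and the difference was at least 1 in size. Adding 1 understates the change of weakly expressed genes. Where a gene had several transcripts, the difference is that of the transcript with the highest mean.

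Several libraries stood apart in ways that touch every comparison. Eed mRNA had an FPKM of 21.8 in EB Eed KO against 25.04 in EB wild type, and 77.8 in ES Eed KO against 72.3 in ES wild type, so Eed mRNA does not check the labels. The names EB Eed KO and ES Eed KO stand for the libraries labelled so. Setd2 had 2.59 in shSetd2 against 16.8 in shCtrl. Trp53, summed over its transcripts, had 0.157 in the library labelled EB Eed KO, against 70.7 in EB wild type, 76.2 in ES Eed KO and 284 in ES wild type. The Y-linked gene Eif2s3y had 0.0628 in that library and from 20.4 to 36.9 in the other 5. EB Eed KO therefore differed from ES Eed KO in these genes as well as in stage. Whether both came from the same clone is not given in the labels. Summed over 10 pluripotency markers, FPKM was 32.0 in EB Eed KO, 248 in EB wild type and from 3327 to 4748 in the ES libraries. On the chromosomes of the members (1, 2, 4, 12 and 19) the median difference between Eed KO and wild type lay within 0.03 of that of all genes, in EBs and in ES cells. Relative sequencing depth ran from 0.798 in EB Eed KO to 1.20 in shCtrl, with ES wild type at 1. It was estimated from the commonest ratio of low values between ES wild type and each library.

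To show the DNA of members that met the size rule between the EB libraries, the 250 bases before the start of Pax9, Pax5 and Pax8 are printed from RefSeq (build GRCm38.p6), 5′ to 3′ in the direction of transcription, with CG dinucleotides in capitals. Pax3 also met the rule but had no window among the RefSeq promoters used. CG-rich promoters are the usual sites of Polycomb marks in ES cells. Pax9 (chr12:56695221-56695470, plus strand) was high only in EB Eed KO by its values below, whereas Pax5 (chr4:44710695-44710944, minus strand) and Pax8 (chr2:24475600-24475849, minus strand) were higher in EB wild type.
Pax9: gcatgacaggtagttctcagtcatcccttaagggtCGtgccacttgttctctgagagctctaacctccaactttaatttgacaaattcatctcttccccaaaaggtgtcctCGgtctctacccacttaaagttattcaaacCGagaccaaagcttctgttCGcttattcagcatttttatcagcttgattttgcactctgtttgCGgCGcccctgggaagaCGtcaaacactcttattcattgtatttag
Pax5: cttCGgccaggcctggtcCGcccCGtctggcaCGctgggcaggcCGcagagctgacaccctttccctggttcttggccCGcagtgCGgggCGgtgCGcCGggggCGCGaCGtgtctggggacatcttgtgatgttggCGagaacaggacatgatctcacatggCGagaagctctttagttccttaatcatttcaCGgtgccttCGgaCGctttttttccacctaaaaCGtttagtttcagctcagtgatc
Pax8: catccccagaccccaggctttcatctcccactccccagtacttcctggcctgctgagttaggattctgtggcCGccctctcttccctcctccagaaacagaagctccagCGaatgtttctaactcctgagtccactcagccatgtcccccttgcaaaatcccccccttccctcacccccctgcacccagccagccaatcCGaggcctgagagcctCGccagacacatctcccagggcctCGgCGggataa

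The Pax9 window held 7 CG dinucleotides, Pax5 held 19 and Pax8 held 6. Among all 32851 promoter windows of this length the median was 6, and 46.3% held at least 7, 19.7% at least 19 and 50.4% at least 6. Pax5 thus had more CG than Pax9, and Pax8 had fewer. The part of CG content in the EB differences was not tested. The RefSeq table had 10 windows for 7 members, Pax2 with 3 and Pax6 with 2, and 9 of the 10 held at least the median of all windows. The richest was a Pax2 window with 25, a number that 10.7% of all windows reached. The half-site of retinoic acid receptors, AGGTCA or its reverse complement TGACCT, was found in 0 of the 10 windows and in 14.02% of all windows, which says only that these letters are not in these windows.

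Between the EB libraries the family split. Pax9 was higher in the library labelled EB Eed KO, Pax3, Pax5 and Pax8 were lower, and the remaining members stayed inside the size rule. That is 1 of 8 members higher and 3 lower, against a background of 8.15% higher and 10.4% lower over 13919 expressed genes. Expression of at least 1 FPKM in at least 1 of these libraries was reached by 6 members, all but Pax1 and Pax7. The median difference was 0.03 over the 8 members and -0.16 over all expressed genes. These medians cover unlike sets, since the first includes Pax1 and Pax7, which were not expressed. The 6 expressed members differed by -2.08 (Pax3), -1.48 (Pax8), -1.33 (Pax5), -0.12 (Pax6), 0.44 (Pax2) and 2.22 (Pax9). Pax9, Pax3, Pax5 and Pax8 met the rule under every rescaling tried.

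**Figure D1:**
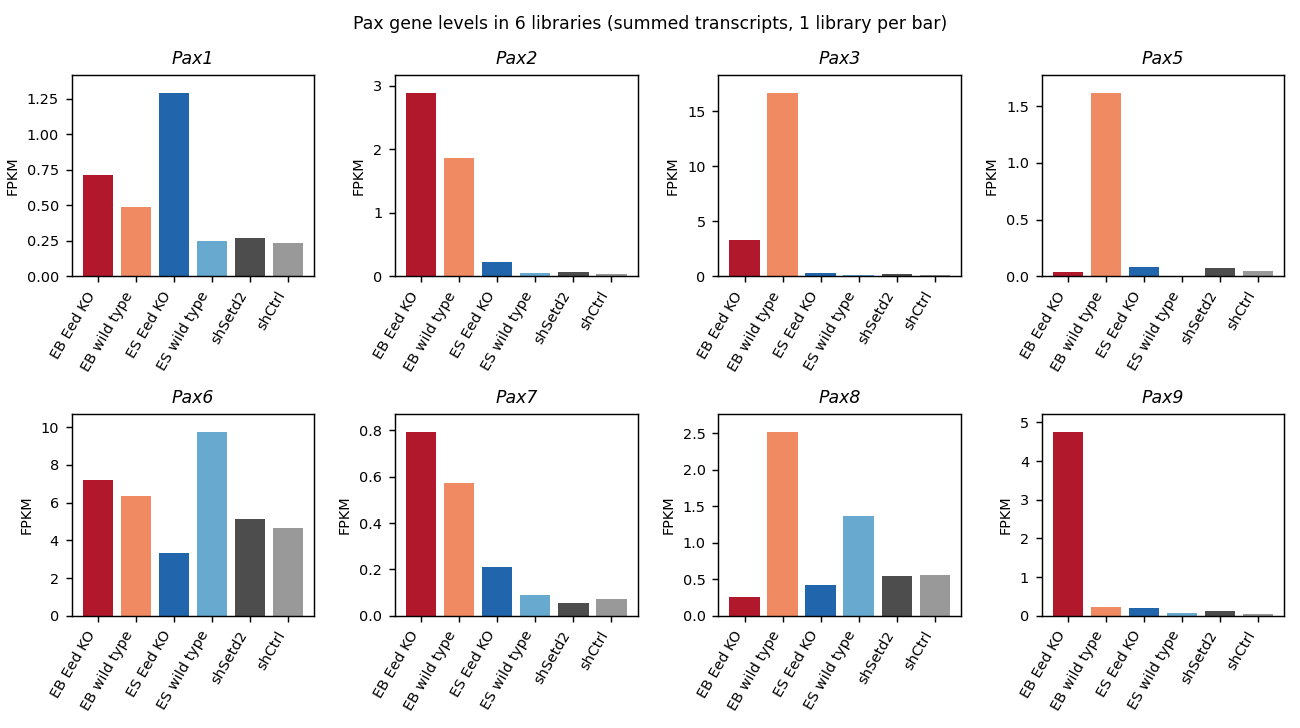
Level of each Pax gene (FPKM, transcripts summed, linear axes from 0 that differ between panels) in the 6 libraries, 1 library per bar and no error. Pax3, Pax5 and Pax8 are highest in EB wild type, Pax2, Pax7 and Pax9 in EB Eed KO, Pax1 in ES Eed KO and Pax6 in ES wild type.

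Pax3 (mm9 chr1:78097842-78193711), which specifies dorsal neural tube, neural crest and muscle precursors, was the most abundant member in EB wild type. Its 2 transcripts, NM_008781 and NM_001159520, summed to 3.34 FPKM in EB Eed KO, 16.7 in EB wild type, 0.271 in ES Eed KO, 0.160 in ES wild type, 0.200 in shSetd2 and 0.159 in shCtrl. Both EB libraries were above all 4 ES libraries, and EB wild type stood above EB Eed KO. NM_008781 had 1.61 in EB Eed KO against 10.04 in EB wild type, a difference of -2.08. NM_001159520 had 1.73 in EB Eed KO against 6.61 in EB wild type, so both transcripts were lower. NM_008781 made up 48.2% of the summed level in EB Eed KO and 60.3% in EB wild type. The differences between EBs and ES cells were 1.09 within the Eed KO label and 3.37 in wild type. The difference of NM_008781 between the Eed KO and wild-type libraries in ES cells was 0.20, with both levels under 1. There NM_001159520 went the other way, with 0.0432 in ES Eed KO against 0.0951 in ES wild type.

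Pax7 (mm9 chr4:139293996-139388883), the close relative of Pax3 that also maintains muscle stem cells, was weak everywhere and reached 1 FPKM in 0 of the 6 libraries. It had 0.792 in EB Eed KO, 0.574 in EB wild type, 0.212 in ES Eed KO, 0.0886 in ES wild type, 0.0535 in shSetd2 and 0.0705 in shCtrl. The EB libraries were again above the ES libraries, but Pax7 did not share the lower level of Pax3 in EB Eed KO, with a difference of 0.19. Within the Pax3 and Pax7 pair, the level of Pax7 per length was below that of Pax3 in every library.

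Pax6, a regulator of eye and neural progenitors, was the only member above 3 FPKM in all 6 libraries when its transcripts were summed. The sums were 7.19 in EB Eed KO, 6.37 in EB wild type, 3.34 in ES Eed KO, 9.73 in ES wild type, 5.12 in shSetd2 and 4.67 in shCtrl. ES wild type was the highest and ES Eed KO the lowest, and the EB libraries lay between them. The file gives these transcripts 1 shared span, mm9 chr2:105376237-105537521, which also holds the antisense gene Pax6os1. Pax6os1 had 0.0266 in EB Eed KO and 0.0180 in EB wild type, and had a 0 in each ES library.

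The make-up of Pax6 differed more between stages than its total. The transcript NM_001244201 made up 20.9% of the sum in EB Eed KO and 16.7% in EB wild type, and 66.3% in ES Eed KO, 51.2% in ES wild type, 48.3% in shSetd2 and 55.3% in shCtrl. All 4 ES libraries were above both EB libraries. NM_001244202 showed the opposite order, with 28.6% in EB Eed KO and 20.1% in EB wild type against 7.12% in ES Eed KO, 7.25% in ES wild type, 12.3% in shSetd2 and 9.72% in shCtrl. NM_001244200 made up between 26.6% (ES Eed KO) and 63.2% (EB wild type). The other transcripts, NM_013627 and NM_001244198, were listed at 0 in 5 libraries and had 0.00159 and 0.000664 FPKM in EB Eed KO. The authors' software divided reads among overlapping isoforms, so these shares rest on that division.

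**Figure D2:**
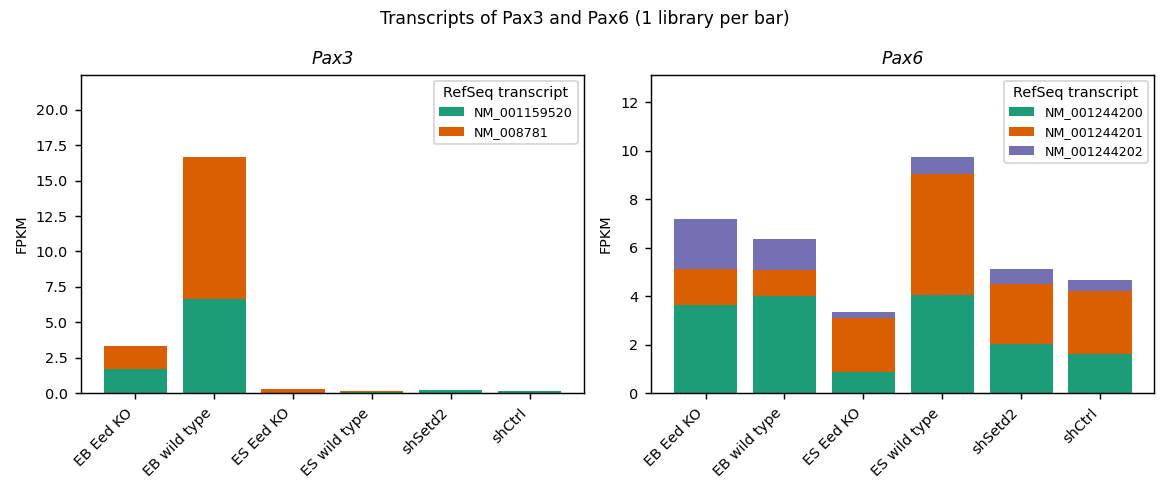
Level of each Pax3 and Pax6 transcript (FPKM, stacked) in the 6 libraries, 1 library per bar. Transcripts that never exceeded 0.01 FPKM are left out. NM_001244201 takes 66.3% of Pax6 in ES Eed KO and 51.2% in ES wild type, against 20.9% in EB Eed KO and 16.7% in EB wild type.

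Pax2 (mm9 chr19:44831884-44912359), which acts in kidney, optic stalk and midbrain, was found at 1 FPKM or more only in EBs. It had 2.89 in EB Eed KO and 1.86 in EB wild type, against 0.226 in ES Eed KO, 0.0575 in ES wild type, 0.0771 in shSetd2 and 0.0432 in shCtrl. Between the EB libraries the difference was 0.44, inside the size rule. The differences between EBs and ES cells were 1.66 within the Eed KO label and 1.43 in wild type. A non-coding gene in the same span, 1700039E22Rik, had 0.0793 in EB Eed KO against 0.455 in EB wild type, and did not share the order of Pax2.

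Pax5 (mm9 chr4:44544378-44723312), the commitment factor of B lymphocytes and a midbrain gene, reached 1 FPKM in EB wild type alone. It had 0.0399 in EB Eed KO, 1.62 in EB wild type, 0.0803 in ES Eed KO, 0.0714 in shSetd2 and 0.0512 in shCtrl, and was listed at 0 in ES wild type. EB Eed KO lay among the ES libraries. The difference between the EB libraries was -1.33, and the ratio of their levels was 0.0246. An overlapping gene, 5730488B01Rik, had 0.0256 in EB Eed KO against 0.715 in EB wild type. Its reads cannot be told from those of Pax5 by strand, and 5730488B01Rik was listed at 0 in all 4 ES libraries. Of the 12 B lymphoid genes listed beside Pax5, 3 were expressed and 1 was lower in EB Eed KO, against 10.4% over all expressed genes. The lower gene was Ebf1, a transcription factor of B cells and neurons, with 2.16 against 18.2.

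Pax8 (mm9 chr2:24276080-24331086), which acts in thyroid, kidney and midbrain, had its lowest level of all libraries in EB Eed KO. It had 0.254 in EB Eed KO, 2.51 in EB wild type, 0.420 in ES Eed KO, 1.36 in ES wild type, 0.546 in shSetd2 and 0.559 in shCtrl. In each E36 pair the library labelled Eed KO was the lower one. The difference was -1.48 between the EB libraries and -0.73 between the ES libraries, the second inside the size rule. The control library shCtrl was also below ES wild type, with a difference of -0.60. ES Eed KO was nearer to shCtrl than to ES wild type, so the size of the ES difference depends on the control. Of the thyroid genes listed beside Pax8, 7 had a row, 2 were expressed and 1 was higher in EB Eed KO, against 8.15% over all expressed genes. The higher gene was Foxe1, a thyroid and palate factor, with 3.11 in EB Eed KO against 0.382 in EB wild type.

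Pax9 (mm9 chr12:57796626-57812217), which acts in the pharyngeal pouches, teeth and sclerotome, differed most between the EB libraries of all members. It had 4.75 in EB Eed KO, 0.237 in EB wild type, 0.190 in ES Eed KO, 0.0659 in ES wild type, 0.126 in shSetd2 and 0.0527 in shCtrl. EB Eed KO stood apart from the other 5 libraries, all of which were under 0.25. The difference between the EB libraries was 2.22, a ratio of 20.0, and that between EB Eed KO and ES Eed KO was 2.27. In wild type the difference between EBs and ES cells was 0.22 with both levels under 1.

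Pax1 (mm9 chr2:147190730-147200784), the partner of Pax9 in sclerotome and thymus, had another order. It had 0.711 in EB Eed KO, 0.491 in EB wild type, 1.29 in ES Eed KO, 0.248 in ES wild type, 0.267 in shSetd2 and 0.237 in shCtrl. It was highest in ES Eed KO, where it was the second most abundant member after Pax6. The difference between the ES libraries was 0.88, inside the size rule, and the ratio of levels was 5.21. The difference between the EB libraries was 0.20.

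**Figure D3:**
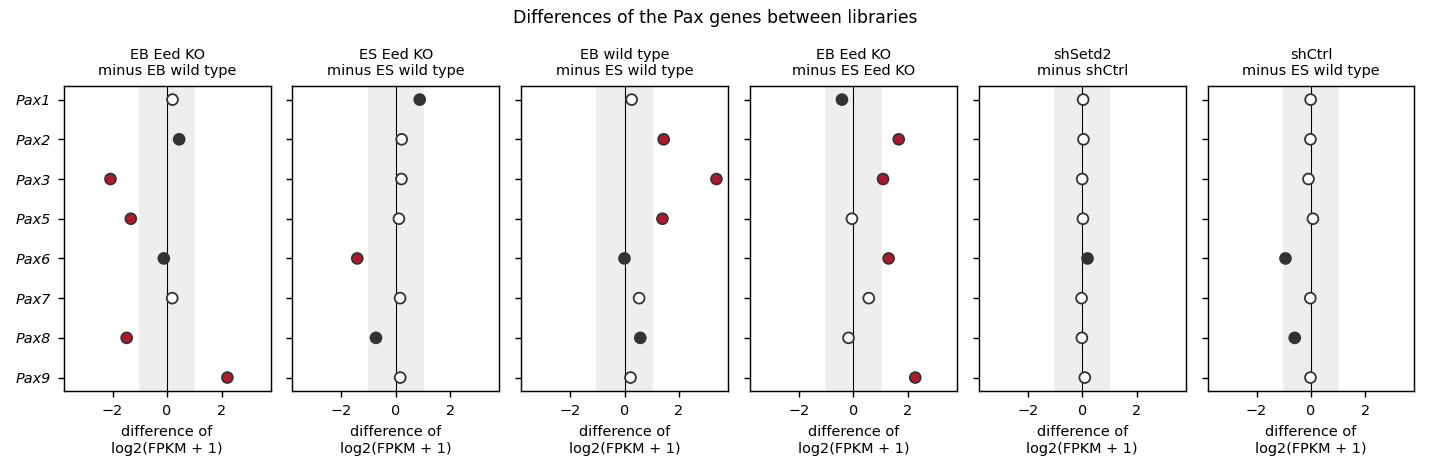
Difference of log2(FPKM + 1) for each Pax gene (rows) in 6 comparisons of 1 library each (panels). The grey band marks differences under 1 in size, red points meet the size rule, dark points had FPKM of at least 1 in 1 of the libraries and open points in neither. Pax9 at 2.22 and Pax3 at -2.08 lie farthest apart between the EB libraries.

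In undifferentiated cells the comparison of Eed KO with wild type had 0 of 8 members higher and 1 lower, against 3.24% higher and 3.46% lower over 12862 expressed genes. The member was Pax6, whose transcript NM_001244200 had 0.887 in ES Eed KO against 4.05 in ES wild type, a difference of -1.42. Only 3 members were expressed, Pax1, Pax6 and Pax8, so the others could not meet the rule. The control mattered for Pax6. The same transcript had 1.64 in shCtrl and 2.02 in shSetd2, both nearer to ES Eed KO, and against shCtrl the difference was -0.48. On the neural progenitor list 3 of 18 genes were higher in ES Eed KO than in ES wild type and 0 lower. Among the 3 were the neurogenic factor Neurog1, at 2.33 in ES Eed KO against 0.427 in ES wild type, and the forebrain factor Emx1, at 1.42 against 0.112. With transcripts summed 1 of the list was lower, and with a pseudocount of 0.1 the number lower was 2. The summed FPKM of the list was 24.7 in ES Eed KO against 32.9 in ES wild type, the same direction as Pax6. Between shCtrl and ES wild type 2 of these 18 genes were higher and 1 lower, against 3.14% and 5.65% over all expressed genes. The lower gene was the progenitor marker Nes, at 2.24 in shCtrl against 23.6 in ES wild type. Over the 14 postmitotic neuron markers FPKM summed to 185 in ES Eed KO against 246 in ES wild type, and their part in the Pax6 value was not tested.

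The place of ES Eed KO among the 4 ES libraries was also counted for each member, a count chosen after the values were seen. With transcripts summed, 6 of 8 members, Pax1, Pax2, Pax3, Pax5, Pax7 and Pax9, had their highest level in ES Eed KO, and Pax6 and Pax8 had their lowest there. Of 20640 genes above 0 in at least 1 of these libraries, 31.5% were highest and 19.9% lowest in ES Eed KO. Pax2, Pax3, Pax5, Pax7 and Pax9 were under 1 FPKM in all 4 ES libraries, and of 7310 such genes 31.6% were highest in ES Eed KO and 14.8% lowest. The margins were uneven. Pax1 had 1.29 in ES Eed KO against 0.267 in the next library and Pax7 0.212 against 0.0886, whereas Pax5 had 0.0803 against 0.0714. With upper-quartile or median-of-ratios rescaling Pax5 was no longer highest in ES Eed KO, which left 5 members. The fragments behind such low values are not in the file, so the order of close values cannot be judged.

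**Figure D4:**
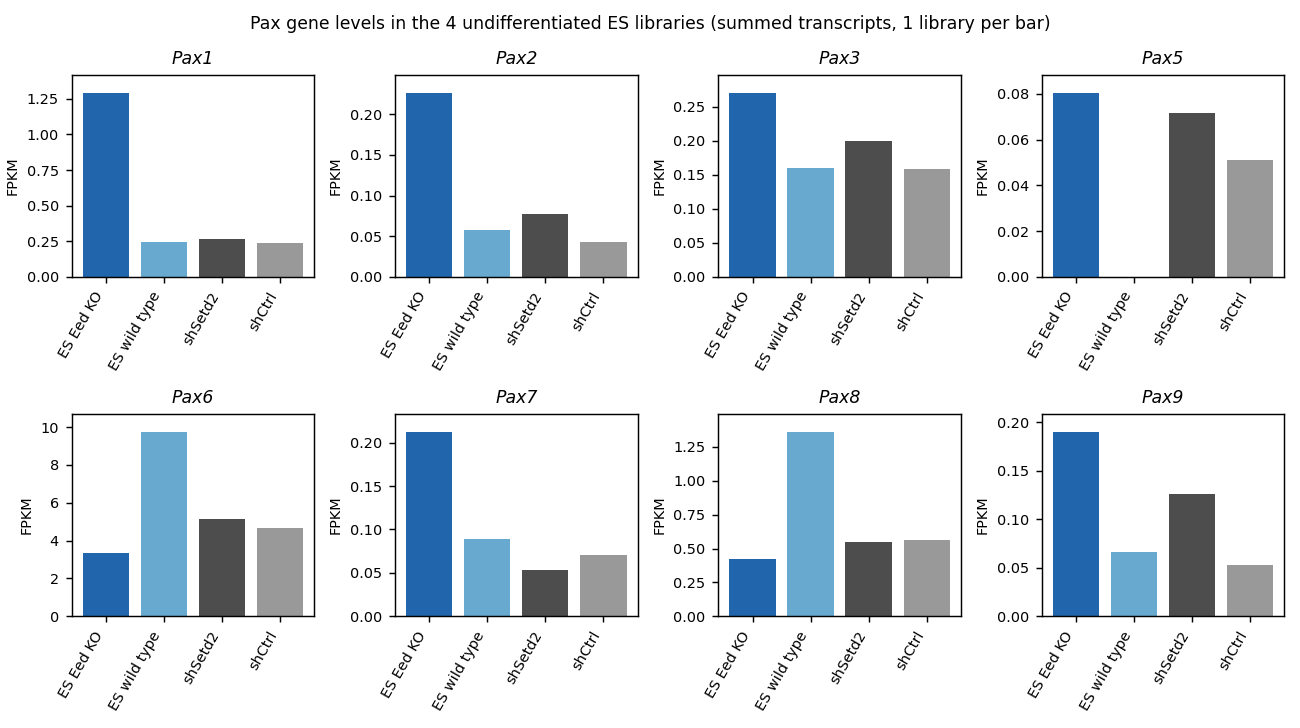
Level of each Pax gene (FPKM, transcripts summed, linear axes from 0 that differ between panels) in the 4 undifferentiated ES libraries, 1 library per bar and no error. Pax1, Pax2, Pax3, Pax5, Pax7 and Pax9 are highest in ES Eed KO, by margins from 1.29 against 0.267 (Pax1) to 0.0803 against 0.0714 (Pax5, not highest after upper-quartile or median-of-ratios rescaling), and Pax6 and Pax8 are highest in ES wild type.

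Part of the family was higher in retinoic acid EBs than in ES cells, and the genes differed by label. In wild type, Pax2, Pax3 and Pax5 were higher in EBs, 3 of 8 members with 0 lower, where the share over 14047 expressed genes was 20.3% higher and 14.9% lower. Within the Eed KO label, Pax2, Pax3, Pax6 and Pax9 were higher in EBs, 4 of 8 with 0 lower, where 20.8% of 13999 genes were higher and 19.6% lower. Pax2 and Pax3 were in both counts. The median over the 8 members was 0.83 within the Eed KO label and 0.55 in wild type, against -0.05 and 0.03 over all expressed genes. In each of these comparisons 5 members were expressed. The member counts and medians include those that were not, unlike the all-gene values. These comparisons share their libraries with those of Eed KO and wild type above and are not independent of them. Pax6 was in the Eed KO count by the transcript NM_001244200 (3.62 in EB Eed KO against 0.887 in ES Eed KO). With its transcripts summed the difference was 0.92 and 3 members were left.

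No member met the size rule after Setd2 knockdown. Between shSetd2 and shCtrl 0 of 8 members were higher and 0 lower, against 0.706% higher and 1.7% lower over 12317 expressed genes. Pax6 alone reached 1 FPKM, with NM_001244200 at 2.02 in shSetd2 against 1.64 in shCtrl, a difference of 0.20. The other 7 were under 0.6 in both libraries, and so could not meet the rule. Between the control libraries, shCtrl against ES wild type, 0 of 8 were higher and 0 lower, where 3.14% of 12747 genes were higher and 5.65% lower. The largest of these differences was that of Pax6 at -0.94, followed by Pax8 at -0.60, both inside the size rule. These libraries differ in line, hairpin and puromycin selection, which cannot be told apart.

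Genes with profiles most like each member over the 6 libraries were found by the root mean square of the difference between mean-centred log2(FPKM + 1) values, 0 being identical. For Pax9 they were Vdr, the vitamin D receptor (0.06), Cers1 (0.08) and Ifit1 (0.13). Vdr had 5.14 in EB Eed KO against 0.256 in EB wild type. For Pax3 they were Lrrn1 (0.06), the Hoxa antisense transcript Hoxaas3 (0.09) and Ebf2 (0.09), a paralogue of Ebf1. Reads of Hoxaas3 and of overlapping Hoxa genes cannot be told apart without strand. Lrrn1 had 3.40 in EB Eed KO against 17.9 in EB wild type. For Pax5 they were Chrna3, a neuronal acetylcholine receptor subunit (0.04), Map3k7cl (0.04) and the neuronal factor Neurod2 (0.05). Chrna3 had 0.0288 in EB Eed KO against 1.68 in EB wild type. For Pax2 they were the bone factor Runx2 (0.06), Rftn2 (0.06) and the semaphorin receptor Plxna4 (0.07). For Pax8 they were Cdc42se2 (0.08), Txlnb (0.09) and Abhd11os (0.10), for Pax6 Mapk12 (0.12), Zfp423 (0.14) and Wdr35 (0.15), and for Pax1 Ice2 (0.06), Lrba (0.07) and Gtf2b (0.08). Pax7 did not reach 1 FPKM and has no such list. With 6 libraries many genes can lie this close. Adding 1 damps weak values, so a weak member can lie close to a stronger gene with a smaller ratio. Gtf2b had 42.0 in ES Eed KO against 26.5 in ES wild type, where Pax1 had 1.29 against 0.248.

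Genes that work beside the Pax genes were followed in lists, and counts are out of all listed genes with a row. In the EB comparison 8.15% of all expressed genes were higher and 10.4% lower. List counts were not tested against these shares. In the network of Six2, Six4, Six5 and the Eya and Dach genes that acts with Pax genes in eye, ear, kidney and muscle, 2 of 9 were higher and 1 lower in the library labelled EB Eed KO than in EB wild type. Six2, a kidney progenitor factor, had 15.0 in EB Eed KO against 2.38 in EB wild type. Eya4 had 6.59 against 2.45. The corepressor Dach1 had 1.49 in EB Eed KO against 10.1 in EB wild type. The median of the 8 expressed members was 0.42. With transcripts summed 2 were lower.

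On the dorsal neural tube and neural crest list, the setting of Pax3 and Pax7, 1 of 14 genes was higher and 5 lower, with a median of -0.21. The endothelin receptor Ednrb had 0.110 in EB Eed KO against 13.3 in EB wild type, Tfap2b had 0.929 against 9.66 and Zic1 had 18.3 against 61.7. With upper-quartile or median-of-ratios rescaling 3 were lower. On the neural progenitor list, the setting of Pax6, 2 of 18 were higher and 7 lower with a median of -2.01 over 12 expressed genes. The radial glia marker Fabp7 was listed at 0 in EB Eed KO against 162 in EB wild type, and the neurogenic factor Neurog2 had 0.291 against 11.7. Pax6 itself was within the size rule in this comparison. On the eye field list 2 of 12 were higher and 2 lower, with Six3, a forebrain and eye factor, at 4.14 in EB Eed KO against 0.140 in EB wild type, and Lhx2 at 7.60 against 18.1. With median-of-ratios rescaling 1 was lower. The differences before rescaling were -1.15 for Lhx2 and -2.72 for the other lower gene, Sox2.

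On the midbrain and hindbrain boundary list, the shared setting of Pax2, Pax5 and Pax8, 3 of 9 genes were higher and 2 lower. The signal Wnt1 had 0.0921 in EB Eed KO against 34.5 in EB wild type, while En2, a boundary factor, had 4.13 against 0.923. Of the Pax genes set beside this list, Pax5 and Pax8 were lower and Pax2 was inside the size rule. On the kidney and urogenital list 8 of 17 were higher and 2 lower with a median of 1.30. Among these Hoxa11 had 10.99 in EB Eed KO against 0.113 in EB wild type, and Gfra1, a receptor for the growth factor Gdnf, had 1.503 against 11.8.

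On the pharyngeal pouch list, the setting of Pax1 and Pax9, 3 of 10 were higher and 1 lower with a median of 0.47 over 6 expressed genes. Tbx1, a pharyngeal and cardiac factor, had 3.57 in EB Eed KO against 0.358 in EB wild type, and Foxa1, an endoderm factor, had 4.97 against 1.30. Hoxa3 had 4.66 against 16.7. On the sclerotome list 4 of 14 were higher and 3 lower. Nkx3-2, a sclerotome factor downstream of Pax1 and Pax9 in mouse, had 1.77 in EB Eed KO against 0.0258 in EB wild type, and Uncx, a factor of the posterior sclerotome, had 0.382 against 14.8. On the myogenic list 2 of 11 were higher and 1 lower, with 6 expressed. On the pancreatic endocrine list 2 of 12 were higher and 1 lower, with 4 expressed.

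Genes of proteins that Pax factors recruit were followed at the mRNA level. Of 15 cofactor genes with a row, 1 was higher and 0 lower, with a median of -0.15. The gene was the corepressor Tle2, at 5.07 in EB Eed KO against 1.29 in EB wild type. Paxip1, which links Pax2 to the MLL methyltransferases of histone H3 lysine 4, had 7.65 in EB Eed KO, 9.09 in EB wild type, 20.4 in ES Eed KO and 19.3 in ES wild type. Paxbp1, a partner of Pax3 and Pax7, had 16.5 in EB Eed KO, 18.9 in EB wild type, 15.1 in ES Eed KO and 16.02 in ES wild type.

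In the other comparisons the lists had the following counts. Of all expressed genes 20.3% were higher and 14.9% lower between EB wild type and ES wild type. The shares were 20.8% and 19.6% between EB Eed KO and ES Eed KO. They were 3.24% and 3.46% between ES Eed KO and ES wild type, and 0.706% and 1.7% between shSetd2 and shCtrl. Between EB wild type and ES wild type, where Pax3 differed by 3.37, 10 of 14 dorsal neural tube and neural crest genes were higher and 1 lower, with Zic1 at 61.7 in EB wild type against 0.242 in ES wild type and Sox9 at 14.6 against 0.170. On the neural progenitor list 7 of 18 were higher and 0 lower, and of the neuron markers 11 of 14 were higher and 0 lower. Between EB Eed KO and ES Eed KO, where Pax3 differed by 1.09, 7 of the 14 dorsal genes were higher and 1 lower, while 3 of the 18 neural progenitor genes were higher and 2 lower and 1 of the 14 neuron markers was higher and 6 lower. Between ES Eed KO and ES wild type, 1 of 10 pharyngeal genes was higher and 0 lower, Tbx1 at 1.66 in ES Eed KO against 0.160 in ES wild type. In that comparison 4 of 10 cardiac and lateral mesoderm markers were also higher and 0 lower, with summed FPKM of 50.7 in ES Eed KO against 12.3 in ES wild type. Between shSetd2 and shCtrl the lists that name Pax settings had 0 genes past the rule, except Col2a1, a cartilage collagen, at 2.38 in shSetd2 against 0.392 in shCtrl. With each of the 3 rescalings 1 neural progenitor gene and 1 kidney gene were also higher, and with transcripts summed the sclerotome and cartilage list had 0 higher and the myogenic list 1.

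**Figure D5:**
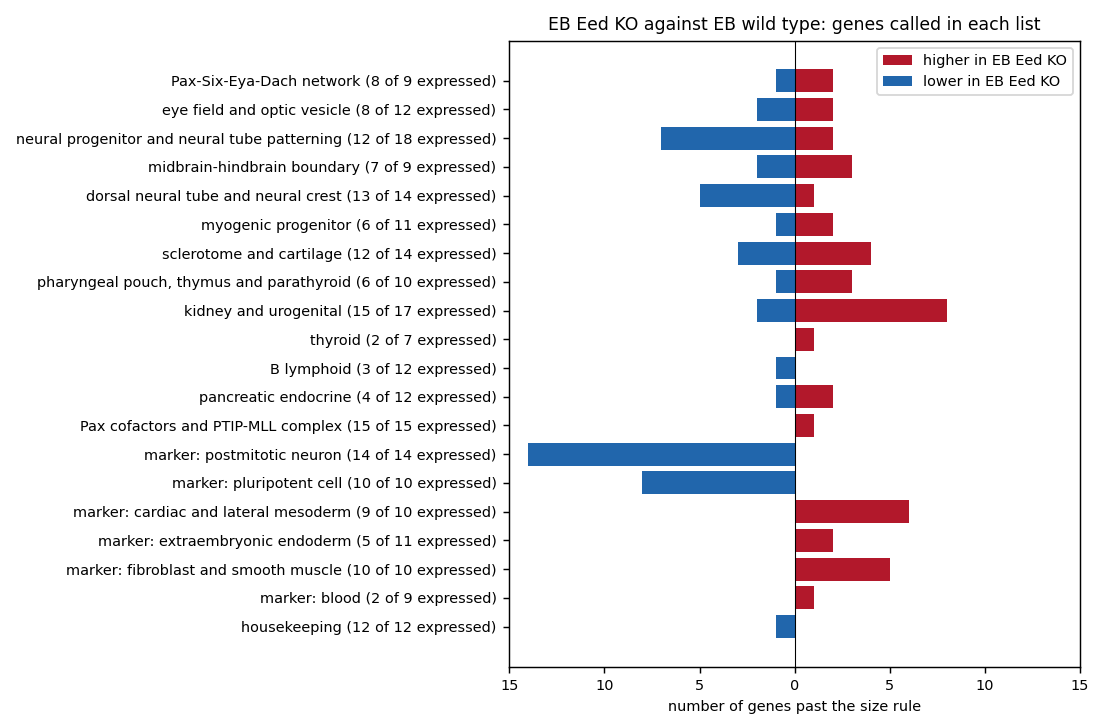
Number of genes past the size rule (horizontal axis, higher to the right and lower to the left) in each gene list (rows) between EB Eed KO and EB wild type, 1 library each. The neuron markers have 14 lower, the neural progenitor list 7 lower and 2 higher, and the kidney list 8 higher and 2 lower. The shares over all expressed genes were 8.15% higher and 10.4% lower.

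Markers of other cell types were counted between the EB libraries in the same way. The shares over all expressed genes were 8.15% higher and 10.4% lower. All 14 postmitotic neuron markers were lower in EB Eed KO, with summed FPKM of 15.8 against 667 in EB wild type. In EB Eed KO 2 of the 14 were listed at 0, Map2 among them. Of 10 pluripotency markers 0 were higher and 8 lower (32.0 in EB Eed KO against 248 in EB wild type). Of 10 cardiac and lateral mesoderm markers 6 were higher and 0 lower (197 in EB Eed KO against 24.8 in EB wild type). Of 10 fibroblast and smooth muscle markers 5 were higher and 0 lower (2146 against 1141). Of 11 extraembryonic endoderm markers only 5 were expressed, and 2 were higher and 0 lower (166 against 85.6). Of 9 blood markers only 2 were expressed, and 1 was higher and 0 lower (8.96 against 3.83). The higher gene was Runx1, at 7.10 in EB Eed KO against 2.91 in EB wild type. Of 12 housekeeping genes 0 were higher and 1 was lower. In EBs, fewer cells of a type and less RNA per cell cannot be told apart, and the part of cell make-up in the Pax levels was not tested.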

How the data were processed

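RNA-seq of 6 libraries, 1 per group, was used. The deposited FPKM values, 1 per RefSeq transcript, were made by the authors with TopHat and Cuffdiff on mm9, per the submitters' processing notes. How libraries were scaled to each other, and the tools' options, releases and annotation, is not given in the sources used here. The TruSeq RNA version 2 kit, per the labels' protocols, does not mark strand. Symbols were matched through a RefSeq table (GRCm38.p6, names only), which named 29300 transcripts and left 551 unnamed. For the 3939 genes with several transcripts, the one with the highest mean was used. Coordinates of transcripts are those deposited on mm9, written from 1.

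The pseudocount was 1, the expression threshold 1 FPKM and the size rule 1 on the log2 scale. No test is possible with 1 library per group. The members, the 20 gene lists and the rules were chosen with earlier results of these data known. Some genes are not reported here, and 3 lists were shortened by them after their values were seen, without regard to those values. From each list up to 4 called genes with the largest EB difference were eligible to be named, and which were printed was decided after their values were seen. The profile search left out genes named by accession, clone or small RNA family. Depth was estimated from transcripts under 0.15 FPKM in both libraries, on spans over 5000 bases. Alternatives were a pseudocount of 0.1, no filter, 3 rescalings, summed transcripts and shCtrl as the control. Python 3.11.15, pandas 2.3.3 and numpy 2.4.6 were used.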

Additional observations from a re-analysis of the deposited data

Results flagged for a closer look

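Pax3 and Pax5 were singled out because the Eed KO label went with a lower level in EBs and a higher one in ES cells. For Pax3, by its transcript NM_008781, the difference between Eed KO and wild type was -2.08 in EBs and 0.20 in ES cells, which are -2.28 apart. Its other transcript, NM_001159520, went the other way in ES cells, with 0.0432 in ES Eed KO against 0.0951 in ES wild type. For Pax5 it was -1.33 in EBs and 0.11 in ES cells, which are -1.44 apart. Both genes were under 0.3 FPKM in the ES libraries, so the ES values rest on weak expression. The difference between stages was not tested, since each group has 1 library.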

How the results depend on the processing

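Of 84 recomputed counts of members, 80 stayed within a factor of 1.5 and 4 did not. With a pseudocount of 0.1, the ES comparison of Eed KO and wild type had 1 member higher (Pax1, at 2.00) and 2 lower (Pax6 and Pax8), and shCtrl against ES wild type had 2 lower (Pax6 and Pax8); this follows from the weaker damping of low values. With shCtrl as the control in place of ES wild type, ES Eed KO had 0 members lower. Of 304 recomputed differences of single members, 0 that met the size rule changed sign, 2 no longer met it, both of Pax6, and 5 newly met it. One of these was Pax8 in EB wild type at 1.17 against shCtrl, an alternative chosen after seeing the data. Of the 4 ES libraries, ES Eed KO was highest for 6 members, and for 5, without Pax5, after upper-quartile or median-of-ratios rescaling; it was lowest for 2 under all 3 rescalings. Of 1520 recomputed list counts, 138 moved by over 1.5 times. Over all expressed genes, 1135 were higher and 1450 lower in EB Eed KO than in EB wild type, and 1442 and 1147 after median-of-ratios rescaling, which moved the median of all genes from -0.16 to 0.00052. No paired analysis was possible because each group has 1 library. Without fragment counts, differences among values under 1 FPKM cannot be given an error.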
